A study of Mus musculus with 10 samples.

Results

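The non-keratin epithelial identity genes are 10 mouse genes that mark epithelial cells without being keratins: Cdh1, Epcam, Esrp1, Esrp2, Cldn1, Cldn4, Cldn6, Cldn7, Perp and Rab25. They were chosen by name, by matching the Ensembl identifiers of the count table to these symbols, and all 10 were found among its 53465 genes. They were followed here as a measure of epithelial RNA in the developing outer ear that does not rest on keratins. The tissue was the forming pinna prominence, the swelling that becomes the visible ear, dissected whole from E14.5 mouse embryos and measured by bulk RNA-seq. One group was wild type (WT, n = 5). The other was mEC1dup/dup (n = 5), labelled as knock-in, in which CRISPR/Cas9 editing had placed an additional copy of mEC1, an enhancer of the homeobox gene Hmx1, on each allele. The line was kept on a C57BL/6J background, no treatment is named for either group, and the replicates of each genotype were independent embryos. Bulk RNA cannot tell fewer epithelial cells from less RNA of these genes per epithelial cell.

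Epithelial cells form sheets that are held together by junctions and sealed against the outside. E-cadherin, encoded by Cdh1, joins neighbouring cells at adherens junctions, claudins form the tight junction strands, and PERP is a desmosome protein of stratified epithelia. The skin of the embryo is at this stage building upper, suprabasal layers on a basal layer, while the epithelium of the inner ear and other simple epithelia remain single layered and use a partly different set of these genes.

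The libraries held between 17461544 and 18462073 counts. Hmx1, the gene under the duplicated enhancer, was counted 376 to 526 times in the WT libraries and 976 to 1356 times in the mEC1dup/dup libraries, without overlap between the groups. Some other measures also moved with genotype. Xist, which is transcribed from the inactive X chromosome of female cells, had 2 to 5 counts in the WT libraries, whereas mEC1dup/dup replicates 1 to 5 had 12812, 19040, 18165, 2096 and 0. The share of embryonic genes among globin counts was 18.4% to 23.3% in WT and 32.6% to 35.6% in mEC1dup/dup libraries. In mEC1dup/dup replicate 1 Oc90, an otoconial matrix gene of the inner ear, was at 39.0 CPM (normalised counts scaled to a common library size), against 175 to 338 CPM in the other 9 libraries.

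Epithelial RNA was present in every library: each of the 10 genes passed the filter on low counts, and the lowest single count was 55, for Rab25. Per length, in RPKM (CPM divided by the exon length in kilobases), the WT mean was highest for Perp (78.3 RPKM) and lowest for Cldn7 (3.26 RPKM). Between them stood Cldn4 at 23.9, Cdh1 at 20.9, Epcam at 20.8, Cldn6 at 17.5, Esrp1 at 7.65, Cldn1 at 7.38, Rab25 at 4.43 and Esrp2 at 4.07 RPKM. In mEC1dup/dup Perp remained highest at 45.3 RPKM, followed by Epcam at 21.4, Cldn6 at 21.2 and Cldn4 at 21.0 RPKM, with Cdh1 at 15.4 RPKM. Rab25, at 2.23 RPKM, was then the lowest of the 10. Among neighbours in the WT order, Cldn4, Cdh1 and Epcam, then Esrp1 and Cldn1, and then Rab25, Esrp2 and Cldn7 differed by less than the larger SD of each pair, whereas Perp and Cldn6 stood apart from their neighbours by more.

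In mEC1dup/dup pinnae Perp and Rab25 fell, and no member rose. A gene was called when its adjusted p (edgeR's quasi-likelihood test, Benjamini-Hochberg over all 16426 genes tested) was at most 0.05 and its average log2 CPM at least 1, the thresholds the study used. Thus 2 of the 10 genes were called lower, where 1.81% of all genes tested were, and 0 were called higher, where 0.834% of all genes were. By DESeq2's Wald test, which called 3.1% of all genes lower and 1.95% higher, 5 of the 10 were called lower, namely Esrp1, Esrp2, Cldn1, Perp and Rab25, and 0 higher. Of the 10 fold changes 8 were negative, and 6 of them had an unadjusted p under 0.05, against 9.08% of all genes tested that were lower at that level; 0 were higher at that level. The median log2 fold change of the 10 genes was -0.38, and that of all genes tested was -0.00415. In 2 genes, again Perp and Rab25, every mEC1dup/dup library lay below every WT library, as in 2.75% of all genes. The reverse was seen in 0 of the 10 and in 2.33% of all genes.

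**Figure D1:**
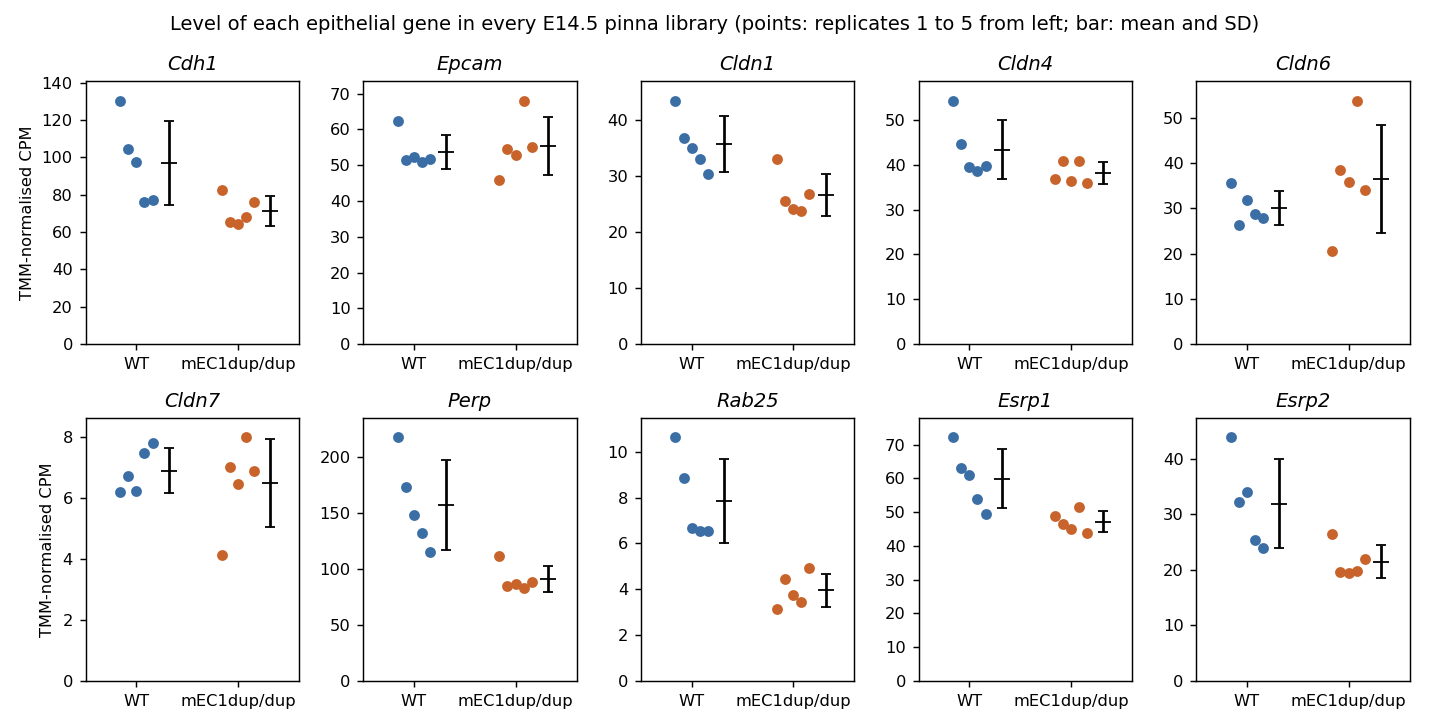
TMM-normalised CPM of each of the 10 genes (vertical axes, from 0) in the 5 WT (blue) and 5 mEC1dup/dup (orange) libraries, replicates 1 to 5 from left to right, with the group mean and SD as a black bar. The groups are apart for Perp and Rab25 and overlap for the other 8 genes.

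Perp (ENSMUSG00000019851, GRCm39 chromosome 10, 18720715 to 18732821, plus strand) encodes a tetraspan membrane protein of desmosomes and is a target of p63, the master regulator of stratified epithelia. Its level in WT replicates 1 to 5 was 217, 173, 148, 132 and 115 CPM, and in mEC1dup/dup replicates 1 to 5 it was 112, 84.4, 86.8, 82.7 and 88.5 CPM. The WT libraries therefore spanned a wide range and the mEC1dup/dup libraries a narrow one below it, with WT replicate 5 only just above mEC1dup/dup replicate 1. The log2 fold change was -0.79 ± 0.15 (SE, n = 5 against 5; edgeR adjusted p = 0.0136), a level 42.1% lower.

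Rab25 (ENSMUSG00000008601, chromosome 3, 88449335 to 88455618, minus strand) encodes a small GTPase of the apical recycling endosome of epithelial cells. It was found at 10.6, 8.86, 6.68, 6.54 and 6.54 CPM in WT and at 3.14, 4.46, 3.75, 3.45 and 4.93 CPM in mEC1dup/dup libraries. All WT libraries were higher than all mEC1dup/dup libraries, and WT replicates 1 and 2 stood above the rest of their group. With a log2 fold change of -0.99 ± 0.18 (SE; edgeR adjusted p = 0.0125), Rab25 showed the largest decrease of the 10, and it ranged from -1.08 to -0.86 when single libraries were left out.

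Both calls were kept in each of the 10 fits that left out a single library, with edgeR adjusted p of 0.00621 to 0.0489 for Perp and 0.0066 to 0.0461 for Rab25. Both were lost in fits that also carry the Xist level (log2 fold change of Perp -0.87, edgeR adjusted p = 0.348; of Rab25 -0.79, adjusted p = 0.402), in which 1 gene of all those tested was called lower and 2 higher. The 5 WT libraries and mEC1dup/dup replicate 5 all had under 10 Xist counts. Between these alone the log2 fold changes were -0.82 for Perp and -0.67 for Rab25. With 1 mEC1dup/dup library, assumed to vary like the WT libraries, they are given as values only. With a term for the embryonic globin share, which does not overlap between the genotypes, the estimates turned to 0.64 and 0.41 (edgeR adjusted p = 0.898 and 0.939), and 0 of all genes were called. Over all alternatives the adjusted p ran from 0.00108 to 0.898 for Perp and from 2.08e-05 to 0.939 for Rab25. The globin share and the genotype cannot be told apart in these libraries, and the part of Xist was not tested further.

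Cdh1 (ENSMUSG00000000303, chromosome 8, 107329941 to 107396880, plus strand) had the same direction as Perp but a smaller change. Its WT levels were 130.4, 105, 97.3, 76.1 and 77.1 CPM, and its mEC1dup/dup levels were 82.4, 65.1, 64.5, 68.2 and 76.2 CPM. The groups overlapped in mEC1dup/dup replicates 1 and 5, which reached the range of WT replicates 4 and 5. The log2 fold change of -0.45 ± 0.13 (SE; 95% interval -0.73 to -0.16) was not called (edgeR adjusted p = 0.0948). Cdh1 was called lower in 4 of 22 alternatives, among them without a filter and without WT replicate 4 (edgeR adjusted p = 0.0473 and 0.0274).

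Esrp1 and Esrp2 encode the epithelial splicing regulatory proteins, which keep many transcripts in their epithelial isoforms. Esrp1 (ENSMUSG00000040728, chromosome 4, 11331933 to 11386875, minus strand) was at 72.2, 62.9, 61.1, 53.9 and 49.5 CPM in WT and at 48.9, 46.4, 45.1, 51.5 and 43.7 CPM in mEC1dup/dup libraries. Only mEC1dup/dup replicate 4 exceeded the lowest WT library, and the log2 fold change was -0.35 ± 0.09 (SE; edgeR adjusted p = 0.0562). Esrp2 (ENSMUSG00000084128, chromosome 8, 106853859 to 106864027, minus strand) was at 43.9, 32.3, 34.1, 25.4 and 24.0 CPM in WT and at 26.4, 19.5, 19.5, 19.8 and 21.9 CPM in mEC1dup/dup libraries. Here mEC1dup/dup replicate 1 overlapped with WT replicates 4 and 5, and the log2 fold change was -0.57 ± 0.15 (SE; edgeR adjusted p = 0.0603). Reads of Esrp2 are less certain, because 47.8% of its exon bases overlap Nfatc3 and a long non-coding RNA on the other strand and the library kit does not mark strand.

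None of the 4 claudins of the list was called. Cldn1 (ENSMUSG00000022512, chromosome 16, 26175392 to 26190596, minus strand), the claudin that the epidermal barrier depends on, was at 43.5, 36.8, 35.1, 33.0 and 30.4 CPM in WT and at 33.1, 25.6, 24.2, 23.8 and 26.7 CPM in mEC1dup/dup libraries. A single mEC1dup/dup library, replicate 1, reached the WT range. Its log2 fold change of -0.42 ± 0.11 (SE; 95% interval -0.65 to -0.19) was not called (edgeR adjusted p = 0.0526). This call depended on the settings: Cldn1 was called lower in 10 of 22 alternatives, among them upper quartile scaling (edgeR adjusted p = 0.0488) and DESeq2's Wald test (adjusted p = 0.0051), and over all of them the adjusted p ran from 0.0051 to 0.91.

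Cldn4 (ENSMUSG00000047501, chromosome 5, 134973973 to 134975788, minus strand), a claudin of many simple and upper stratified epithelia, was at 54.3, 44.6, 39.6, 38.6 and 39.7 CPM in WT and at 36.7, 40.7, 36.4, 40.9 and 36.0 CPM in mEC1dup/dup libraries. Apart from WT replicates 1 and 2 the genotypes covered much the same range (log2 fold change -0.18 ± 0.09 SE, 95% interval -0.37 to 0.01; edgeR adjusted p = 0.335). Without WT replicate 1 the log2 fold change was -0.0886.

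Cldn6, Cldn7 and Epcam showed no call in either direction. Cldn6 (ENSMUSG00000023906, chromosome 17, 23898223 to 23901420, plus strand), a claudin of embryonic epithelia, was at 35.7, 26.4, 31.8, 28.8 and 27.9 CPM in WT and at 20.5, 38.5, 35.7, 53.8 and 34.0 CPM in mEC1dup/dup libraries. The mEC1dup/dup group held both the lowest and the highest library, replicates 1 and 4, and the log2 fold change was 0.28 ± 0.19 (SE; 95% interval -0.12 to 0.68; edgeR adjusted p = 0.513). It was 0.43 without replicate 1 and 0.0973 without replicate 4 (edgeR adjusted p = 0.109 and 0.814). Cldn7 (ENSMUSG00000018569, chromosome 11, 69852648 to 69858711, plus strand), which sits mainly on the lateral membrane, was at 6.18, 6.70, 6.23, 7.48 and 7.81 CPM in WT and at 4.11, 7.00, 6.46, 7.98 and 6.88 CPM in mEC1dup/dup libraries. It too had its extremes in mEC1dup/dup replicates 1 and 4 (log2 fold change -0.08 ± 0.16 SE, 95% interval -0.42 to 0.26; edgeR adjusted p = 0.847), and 15.7% of its exon bases overlap Elp5 on the other strand.

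Epcam (ENSMUSG00000045394, chromosome 17, 87943407 to 87958557, plus strand), an epithelial adhesion protein that binds Claudin-7, was at 62.3, 51.3, 52.4, 50.9 and 51.6 CPM in WT and at 45.8, 54.6, 53.0, 68.1 and 55.1 CPM in mEC1dup/dup libraries. Again mEC1dup/dup replicate 1 was the lowest and replicate 4 the highest of all 10. The log2 fold change was 0.04 ± 0.09 (SE; 95% interval -0.15 to 0.24; edgeR adjusted p = 0.867), so that a decrease as large as that of Perp lies outside the interval.

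**Figure D2:**
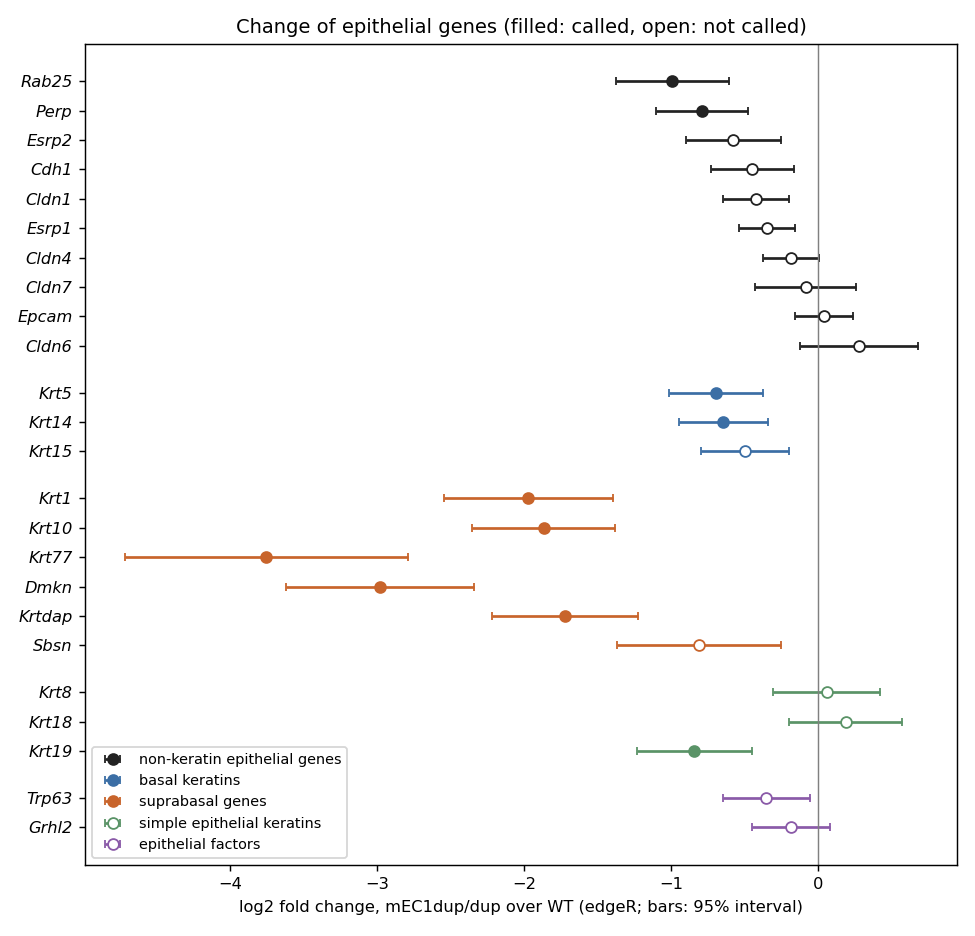
Log2 fold change of mEC1dup/dup over WT (horizontal axis; bars are 95% intervals from edgeR, n = 5 against 5) for the 10 genes and 14 other epithelial genes, filled where called. Rab25 and Perp at -0.99 and -0.79 stand at the lower end of the 10, Cldn6 at 0.28 at the upper end, and the suprabasal genes Krt1, Krt10, Krt77, Dmkn and Krtdap lie below all 10.

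The promoters of the genes that RefSeq's table (GRCm38.p6) holds are shown because the letters bound by known regulators of this programme can be read in them. Of the 10 genes 6 matched an entry, namely Rab25, Epcam, Cldn1, Cldn4, Cldn6 and Cldn7, the last with 2 start sites; the others are Cdh1, Esrp1, Esrp2 and Perp. The 250 bases before each start were searched on both strands for CAGGTG, the E-box bound by the ZEB and SNAI repressors, for AACCGGTT, a grainyhead-like site, and for CAAGTG, a core bound by HMX factors; none of the 3 contains another. Printed 5′ to 3′ along the gene, with matches in capitals, are Rab25 (called lower), Cldn4 and Cldn1 (not called). Rab25 is at chr3:88548320-88548529 (minus strand, without the 40 bases next to the start), Cldn4 at chr5:134946935-134947184 (minus strand) and Cldn1 at chr16:26371840-26372089 (minus strand).
Rab25: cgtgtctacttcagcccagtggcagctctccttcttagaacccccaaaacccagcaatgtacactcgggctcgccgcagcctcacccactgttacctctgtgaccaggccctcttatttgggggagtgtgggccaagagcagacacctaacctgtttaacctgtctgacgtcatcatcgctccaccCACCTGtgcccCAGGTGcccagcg
Cldn4: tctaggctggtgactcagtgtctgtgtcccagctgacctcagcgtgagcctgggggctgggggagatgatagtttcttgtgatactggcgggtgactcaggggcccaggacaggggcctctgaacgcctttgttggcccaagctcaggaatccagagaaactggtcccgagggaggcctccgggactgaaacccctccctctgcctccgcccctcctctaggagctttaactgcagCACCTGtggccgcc
Cldn1: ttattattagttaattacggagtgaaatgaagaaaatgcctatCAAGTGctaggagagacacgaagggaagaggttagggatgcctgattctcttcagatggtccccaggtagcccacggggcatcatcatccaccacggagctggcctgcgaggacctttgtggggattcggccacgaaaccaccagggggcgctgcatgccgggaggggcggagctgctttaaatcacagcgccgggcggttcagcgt

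In Rab25 the E-box letters occur at 2 places, beginning at positions -64 and -53 (-1 is the base before the start), and in Cldn4 once, at -14. Of the 7 member promoters 5 hold them, those of Rab25, Epcam, Cldn4 and Cldn6 and 1 of Cldn7, and 17.2% of all 32851 promoters in the table do. The Cldn1 promoter has none of these and instead the HMX letters at -207. These letters were found in 2 of the 7, Cldn1 and a start of Cldn7, and in 11.6% of all promoters. The grainyhead-like letters were in 0 of the 7 and in 0.116% of all promoters. The promoters with E-box letters belong to Rab25, which was called lower, and to Epcam, Cldn4, Cldn6 and Cldn7, which were not called. The matches are descriptions of sequence, not sites of binding. Over its whole set of downregulated genes, the study reported that the Hmx1 motif was not enriched in promoters or other cis-regulatory elements.

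The levels also varied between libraries of one genotype. WT replicate 1 was the highest WT library for 9 of the 10 genes, all but Cldn7, and the highest of all libraries for 7. Within mEC1dup/dup, replicate 1 was the highest for Cdh1, Esrp2, Cldn1 and Perp and the lowest for Epcam, Cldn6, Cldn7 and Rab25.

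Of the 5 otic marker genes Oc90, Otog, Tecta and Pou4f3 were also lowest in that library, and Myo7a was not. Oc90 was at 175, 178, 229, 202 and 192 CPM in WT and at 39.0, 210, 204, 338 and 220 CPM in mEC1dup/dup libraries, lowest in replicate 1 and highest in replicate 4, as Epcam, Cldn6 and Cldn7 were. Otog and Tecta, which encode proteins of the inner ear's acellular membranes, had their lowest level in mEC1dup/dup replicate 1 (3.60 and 5.54 CPM) and their highest in replicate 4 (27.8 and 48.7 CPM). Krt8 and Krt18, the keratin pair of simple epithelia, also ran from 9.09 and 9.14 CPM in replicate 1 to 20.1 and 21.9 CPM in replicate 4. Cldn9, the neighbour of Cldn6 and a claudin of the inner ear, named after its values were seen, did the same with 3.60 and 13.4 CPM. The order was not particular to these genes. Cldn11 also ran from 13.8 to 54.2 CPM. The chondrocyte genes Col2a1, Col9a1, Acan and Matn1 were likewise lowest in replicate 1 and, within mEC1dup/dup, highest in replicate 4. Sox9 was lowest in replicate 1 but highest in replicate 2. Within WT, replicate 1 had the lowest Oc90 and Cldn7 but the highest Epcam and Cldn6. None of the 5 otic genes listed was called by edgeR, with 0 at an unadjusted p under 0.05, and their summed level ranged from 230.1 to 288 CPM in WT and from 81.8 to 447 CPM in mEC1dup/dup libraries. With the Oc90 level as a covariate, an alternative added after its values were seen, the log2 fold changes were 0.31 for Cldn6 (edgeR unadjusted p = 0.00789, adjusted p = 0.113), 0.0659 for Epcam (adjusted p = 0.708) and -0.0493 for Cldn7 (adjusted p = 0.87). In that fit Esrp2 and Cldn1 were called lower in addition to Perp and Rab25, 4 genes in all, where 2.6% of all genes were called lower. Without mEC1dup/dup replicate 1 it was also 4, against 2.06% of all genes.

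**Figure D3:**
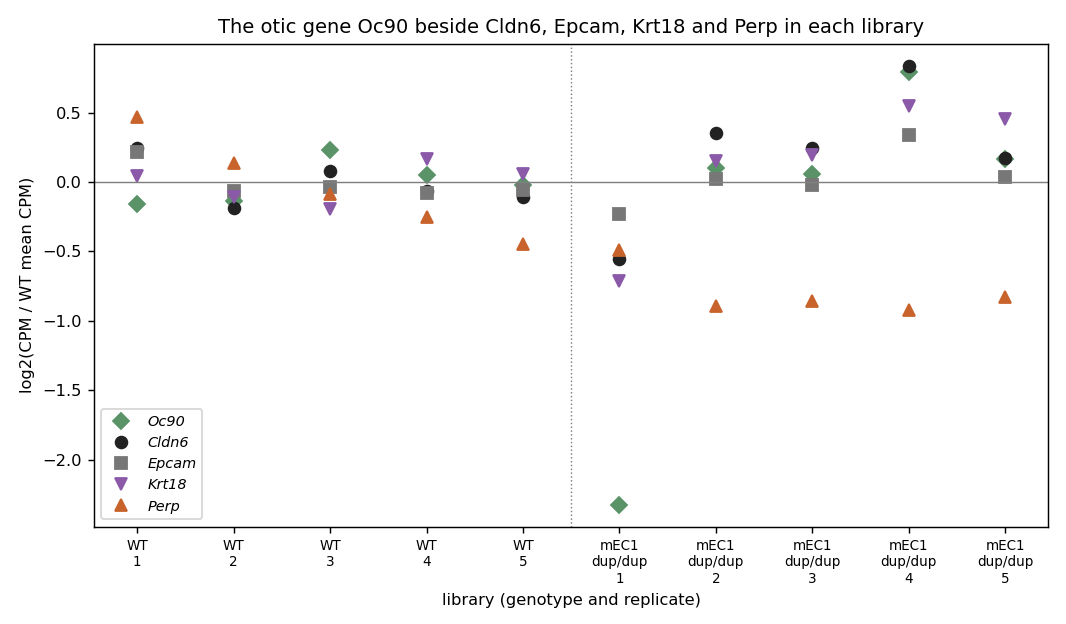
Log2 of CPM over the WT mean (vertical axis) in each of the 10 libraries (horizontal axis, genotype and replicate) for the otic gene Oc90 and for Cldn6, Epcam, Krt18 and Perp. Oc90, Cldn6, Epcam and Krt18 are lowest in mEC1dup/dup replicate 1 and highest in replicate 4, whereas Perp is below its WT mean in each mEC1dup/dup library.

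As a keratin-free level of epithelial RNA, the mean log2 CPM over the 10 genes was 5.48, 5.22, 5.14, 5.02 and 4.98 in WT replicates 1 to 5 and 4.74, 4.84, 4.76, 4.91 and 4.86 in mEC1dup/dup replicates 1 to 5. The mean of WT was 5.17 ± 0.20 (SD, n = 5) and that of mEC1dup/dup 4.82 ± 0.07 (SD, n = 5), a difference of -0.35 or 21.4% on the linear scale, and the groups did not overlap. Leaving out WT replicate 1, the highest library, the difference was -0.27. The genes did not share the decrease evenly. Rab25 and Perp had log2 fold changes of -0.99 and -0.79, whereas Cldn7, Epcam and Cldn6 had -0.08, 0.04 and 0.28. The remaining genes ran from -0.57 (Esrp2) to -0.18 (Cldn4). Taken singly, each gene but Perp and Rab25 overlapped between the groups. Among the marker lists of other cell types, the median log2 fold change was -0.28 over 6 fibroblast genes, of which 1 was called lower, and -0.30 over 5 chondrocyte genes, of which 0 were called, beside -0.38 over the 10 epithelial genes. It was -0.51 over 4 neuron genes and -0.26 over 5 melanocyte genes, with 0 called in each. In the remaining marker lists the median ran from -0.15 for muscle to 0.81 for embryonic globin. The part of these cell types in the result was not tested. No p is given for this mean, because its genes were chosen with results of these data known.

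Over 9 genes of basal keratinocytes, the dividing layer of the epidermis, the same mean differed by -0.45. Over 11 genes of suprabasal keratinocytes, the differentiating layers, it differed by -1.83, or 71.8% on the linear scale. In each mEC1dup/dup library the distance from the WT mean was larger for the suprabasal genes (-1.97 to -1.60) than for the 10 epithelial genes (-0.43 to -0.26).

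**Figure D4:**
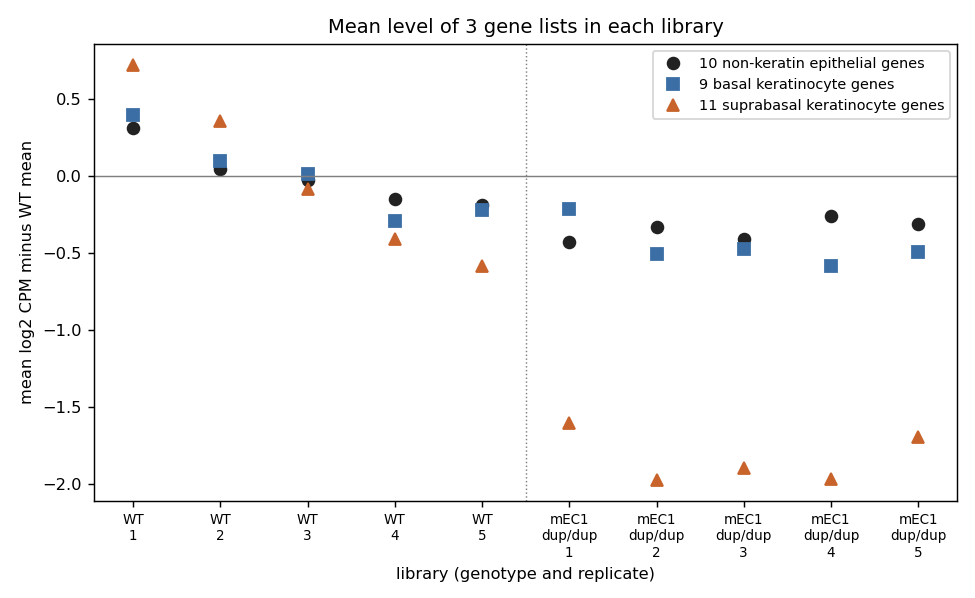
Mean log2 CPM minus the WT mean (vertical axis) in each library (horizontal axis) for the 10 non-keratin epithelial genes (circles), 9 basal keratinocyte genes (squares) and 11 suprabasal keratinocyte genes (triangles). The group difference is -0.35, -0.45 and -1.83, and WT replicate 1 is the highest library for each list.

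Whether a gene moved with the epithelial level of its own library was examined as the log2 ratio of the gene to Cdh1, which is free of library scaling. For each of 23 genes the ratios of the 5 mEC1dup/dup and 5 WT libraries were set against each other in an exact permutation test, two-sided, whose smallest p is 0.00794, with Benjamini-Hochberg adjustment over the 23. These 23 genes were chosen with results of these data known, and every adjusted p depends on that choice. The p of a ratio is thus a description of these libraries and no independent support. The ratio of Perp to Cdh1 was 1.67, 1.65, 1.52, 1.73 and 1.49 in WT and 1.35, 1.30, 1.35, 1.21 and 1.16 in mEC1dup/dup libraries. The groups did not overlap, and the difference was -0.34 on the log2 scale (exact permutation p = 0.00794, adjusted p = 0.0261). Rab25 relative to Cdh1 differed by -0.54 (exact permutation p = 0.0159, adjusted p = 0.0365), with WT at 0.0823, 0.0857, 0.0697, 0.0872 and 0.0861 and mEC1dup/dup at 0.0394, 0.0701, 0.0598, 0.0522 and 0.0660. Here mEC1dup/dup replicate 2 reached WT replicate 3.

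The call for Rab25 was lost without WT replicate 1, 2, 4 or 5 or without mEC1dup/dup replicate 4, with adjusted p of up to 0.0685 (exact permutation). That for Perp was kept with any one library left out.

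Cldn1 had nearly the same mean level relative to Cdh1 in both genotypes, with a mean log2 ratio of -1.42 ± 0.15 in WT and -1.42 ± 0.09 in mEC1dup/dup libraries (SD, n = 5 each; exact permutation adjusted p = 0.976). For Esrp1 the ratio differed by 0.09 (exact permutation adjusted p = 0.475) and for Esrp2 by -0.13 (adjusted p = 0.0702), and the groups overlapped in both. With Epcam in place of Cdh1 as the denominator the differences were -0.37 for Esrp1 and -0.58 for Esrp2 (exact permutation adjusted p = 0.0437 each), and those of Perp and Rab25 were -0.80 and -0.997 (adjusted p = 0.0437 and 0.0291). Cldn1 relative to Epcam differed by -0.45 and was not called (exact permutation adjusted p = 0.0698).

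Relative to Cdh1 the mean was higher in mEC1dup/dup for Epcam by 0.46 (exact permutation p = 0.0317, adjusted p = 0.0609), for Cldn6 by 0.64 (adjusted p = 0.117), for Cldn7 by 0.31 (adjusted p = 0.432) and for Cldn4 by 0.25 (adjusted p = 0.134), and none of the 4 was called. With Epcam as the denominator the differences were 0.18 for Cldn6, -0.14 for Cldn7 and -0.21 for Cldn4, none of them called. With single libraries left out, the difference of Cldn7 relative to Cdh1 ran from 0.16 to 0.52. Epcam per Cdh1 was 0.478, 0.491, 0.539, 0.669 and 0.670 in WT and 0.556, 0.839, 0.822, 0.998 and 0.724 in mEC1dup/dup libraries. All mEC1dup/dup libraries but replicate 1 were above the WT range. Without that library the differences of Epcam (0.58) and Cldn6 (0.89) had the smallest exact permutation p of 0.00794 and an adjusted p of 0.0203 each. Without mEC1dup/dup replicate 4 they were 0.37 and 0.47 (exact permutation adjusted p = 0.126 and 0.235), and neither was called with any of the other 9 libraries left out.

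**Figure D5:**
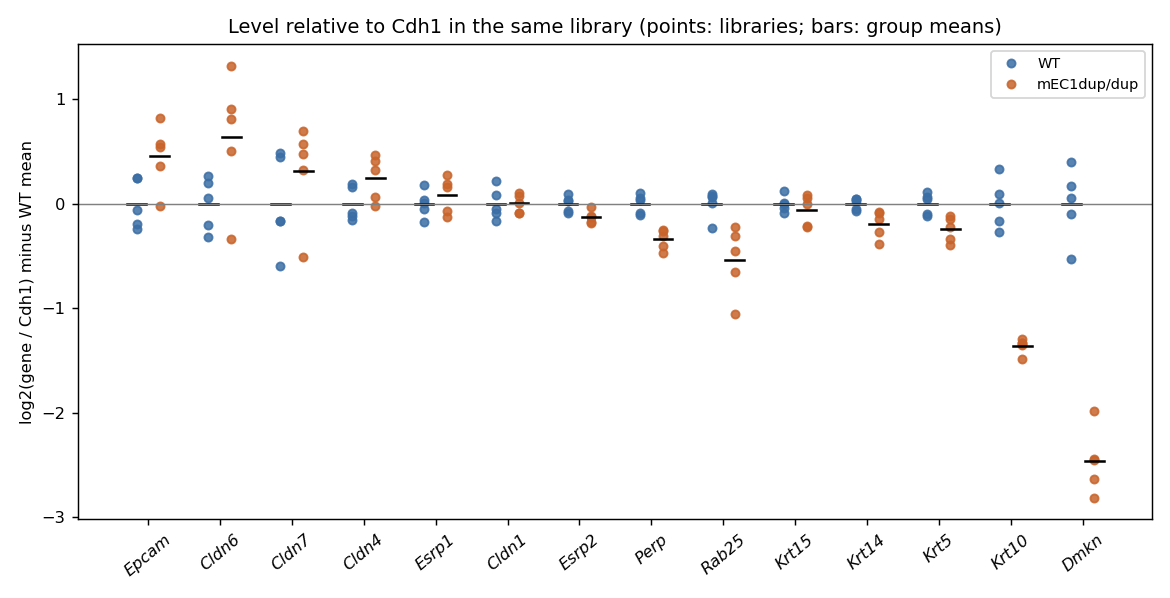
Log2 ratio of each gene to Cdh1 in the same library, minus the WT mean ratio (vertical axis), for 14 genes; points are WT (blue) and mEC1dup/dup (orange) libraries and bars group means. The mEC1dup/dup libraries lie below the WT libraries without overlap for Perp, Krt14, Krt10 and Dmkn, and the mean difference runs from 0.64 for Cldn6 to -2.47 for Dmkn.

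The keratinocyte genes relative to Cdh1 show the scale. Of the basal keratins, the ratio of Krt14 differed by -0.19 (exact permutation adjusted p = 0.0261), that of Krt5 by -0.24 (adjusted p = 0.0365) and that of Krt15 by -0.06 (adjusted p = 0.487). The calls for Krt14 were lost in the 5 comparisons without any one WT library, and those for Krt5 in 7 of the 10 with 1 library left out (all but those without WT replicate 3 and mEC1dup/dup replicates 1 and 3). The suprabasal genes were lower per Cdh1, with differences of -3.01 for Krt77, -2.47 for Dmkn, -1.44 for Krt1, -1.36 for Krt10 and -1.22 for Krtdap, each without overlap (exact permutation adjusted p = 0.0261). Krt77, Dmkn and Krtdap are among the genes that the study itself named from this bulk RNA-seq, so their low p was foreseeable. Sbsn, which lies beside Dmkn and Krtdap, differed by -0.29 and was not called (exact permutation adjusted p = 0.215). With single libraries left out its difference ran from -0.41 to -0.16, never called. The ratio of Krt19 differed by -0.37 (exact permutation adjusted p = 0.0365), whereas Krt8 and Krt18 had means higher by 0.43 and 0.55 (adjusted p = 0.233 and 0.148). Without mEC1dup/dup replicate 1 Krt8 and Krt18 differed by 0.67 and 0.82, past the threshold (exact permutation adjusted p = 0.0456 and 0.0421). Relative to Epcam they differed by -0.0287 and 0.0974, neither called. The Krt19 call was lost without WT replicate 1 or 2 or mEC1dup/dup replicate 2, 3 or 4.

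Among 11 epithelial transcription factors 1 was called lower and 0 higher, 9 had a negative log2 fold change (median -0.32), and 6 were lower at an unadjusted p under 0.05. The one called was Grhl1, a grainyhead-like factor of the epidermis, at -0.98 ± 0.21 (SE; edgeR adjusted p = 0.0273). Trp63, which encodes p63, was at -0.35 ± 0.14 (SE; edgeR adjusted p = 0.217), and Grhl2, a direct activator of Cdh1 and Cldn4, at -0.18 ± 0.12 (SE; adjusted p = 0.519). Relative to Cdh1 they differed by 0.07 and 0.26 (exact permutation adjusted p = 0.664 and 0.0609). The difference of Grhl2 passed the threshold without WT replicate 4 (0.32) or mEC1dup/dup replicate 1 (0.31; exact permutation adjusted p = 0.0456 each). Relative to Epcam, Trp63 and Grhl2 differed by -0.39 and -0.19, neither called. Among 22 other junction, polarity and membrane protease genes 2 were called lower and 0 higher, and 5 were lower at an unadjusted p under 0.05 (median -0.19). One of them, named because the count is small, was Sfn, the epithelial 14-3-3 sigma, at -0.66 ± 0.13 (SE; edgeR adjusted p = 0.0182).

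Of 10 other claudins that could be tested, 0 were called in either direction, and by unadjusted p under 0.05 1 was lower and 1 higher. The lower one, Cldn2, had an edgeR adjusted p of 0.0243 but an average log2 CPM under the threshold. The basal list had 2 of 9 genes called lower, the suprabasal list 8 of 11 and the list of simple epithelial and periderm keratins 2 of 6, with 0 called higher in each. At an unadjusted p under 0.05 they had 9, 10 and 3 lower genes. Among called genes, the largest decrease in the suprabasal list was that of Krt77 (-3.75 ± 0.45 SE; edgeR adjusted p = 0.00188), in the basal list Krt5 (-0.69 ± 0.15 SE; adjusted p = 0.0257) and among the simple and periderm keratins Krt6a (-1.51 ± 0.32 SE; adjusted p = 0.025).

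Mesenchymal genes and the transcriptional repressors of Cdh1, among them Zeb1, Zeb2, Snai1 and Snai2, showed no call: 0 of 11 in either direction by edgeR, with 1 lower and 1 higher by unadjusted p under 0.05 and a median log2 fold change of 0.02. Zeb1 was at -0.04 ± 0.05 and Zeb2 at -0.09 ± 0.05, and Snai1 and Snai2 at 0.11 ± 0.09 and 0.02 ± 0.07 (SE). These 4, and the N-cadherin gene Cdh2 at 0.21 ± 0.07 (SE; edgeR adjusted p = 0.141), are named after their values were seen. Of the markers of other cell types, 1 of 6 fibroblast genes was called lower, and 0 were called for chondrocytes (5), muscle (5), endothelium (5), melanocytes (5), Schwann cells (5), neurons (4), macrophages (4) and hair placodes (4). Of the 3 embryonic globin genes 2 were called higher, Hbb-y at 0.81 ± 0.19 and Hba-x at 0.79 ± 0.19 (SE; edgeR adjusted p = 0.0407 and 0.0457), and all 3 were without overlap between the genotypes. At an unadjusted p under 0.05 in edgeR's test, where 9.08% of all genes were lower, 5 of the 6 fibroblast genes, 2 chondrocyte, 2 melanocyte, 1 muscle, 1 endothelial and 1 Schwann cell gene were lower. The summed chondrocyte level spanned 4553 to 7598 CPM in WT and 2050 to 6039 CPM in mEC1dup/dup libraries, where replicate 1 was the lowest. Of 5 salivary gland genes 1 passed the filter, at 0.693 to 0.831 CPM in WT and 0.716 to 1.52 CPM in mEC1dup/dup libraries, and Bpifa2 and Prol1 were at 0 counts throughout.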

How the data were processed

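RNA of whole pinna prominences was sequenced after poly-A selection. Per the labels and the study's methods, the authors used fastp, FastQC, STAR, GRCm39 and featureCounts, and the deposited values are raw counts per gene, without normalization. The annotation release, use of strand and handling of reads with several matches are not given in the sources used here. The labels and the methods name different library kits, neither of which marks strand.

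All 10 columns were mapped to a genotype and replicate by name. Symbols and positions came from GENCODE M39 of GRCm39, which matched 49355 of 53465 genes, and unmatched genes held 0.111% of counts. Genes were filtered with filterByExpr, normalized by TMM and tested with edgeR 4.0.16 (glmQLFit without robust estimation, glmQLFTest) in R 4.3.3, with genotype as the only term. Calls needed an adjusted p (Benjamini-Hochberg) no higher than 0.05 together with an average log2 CPM no lower than 1. The SE is the log2 fold change divided by the square root of F. Log2 CPM for means and ratios used a prior count of 2, and RPKM used the summed exon length. The steps were tested on simulated counts.

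The 10 genes, the other lists and the tests were chosen with earlier results of these data known. Named were the 10 genes, those with a ratio to Cdh1, the largest called decrease and increase of each list, and Hmx1. A gene that this rule names is not reported here. The study describes the replicates as independent embryos, with siblings drawn from separate litters, and the sex of each is not given in the sources used here. The labels state no link between same-numbered libraries of the 2 genotypes beyond the number. Alternatives were DESeq2 1.42.0, limma-voom (limma 3.58.1), other scalings and filters, a replicate block, covariates and leaving out each library. Totals of 17461544 to 18462073 counts limit the precision of low genes such as Rab25, and reads carry no molecular identifiers. No protein sequences were used here. Figures were drawn with matplotlib 3.10.9.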

Additional observations from a re-analysis of the deposited data

Results flagged for a closer look

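Among 78 groups of 5 values, 7 held 1 library whose gap to its nearest neighbour exceeded 0.71 of the group's range (Dixon's 95% critical value). Chance flags about 1 in 20 groups, and the values share libraries. Epcam in WT replicate 1 (62.3 CPM) was far above the other WT libraries. Perp in mEC1dup/dup replicate 1 (112 CPM) was far above the others of its genotype, as was the mean log2 CPM of the basal keratinocyte genes there (6.05). The mean log2 CPM of the otic genes (2.92) and the log2 ratio of Krt18 to Cdh1 (-3.16) were far below the others in that same library. The log2 ratio of Rab25 to Cdh1 in WT replicate 3 (-3.84) and that of Krtdap in WT replicate 5 (-3.10) were the low values of their groups.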

How the results depend on the processing

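Of 518 comparisons with an alternative, 423 kept their direction and side of the threshold, 36 lost the call, 36 gained it and 23 changed sign. The number of the 10 genes called lower, 2 in the report, was 6 without a filter, 5 by DESeq2's Wald test, 6 by limma-voom with sample quality weights and 4 with the Oc90 covariate added after seeing the data. Over all genes these fits called 329, 510, 584 and 427 lower, against 297. The fit without a filter tested 29467 genes, and the others and the main fit 16426. With upper quartile scaling and with at least 10 counts in every library it was 3, Cldn1 being added. Of all genes tested, 313 of 16426 and 323 of 15129 were called lower in these fits. The number of the 10 genes called lower was 0 with the Xist covariate and 0 with the globin share covariate. Over all genes, these fits called 1 and 0 genes lower, against 297. The libraries with under 10 Xist counts include 1 mEC1dup/dup library, so no count is given for them. Leaving out single libraries gave 2 to 6 (6 without WT replicate 4, 5 without WT replicate 5, 4 without mEC1dup/dup replicate 1), where 476, 237 and 342 of all genes were called lower. None of the alternatives called a member higher.

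With the replicate number as a block 6 of the 10 genes were called lower, and all genes called lower rose from 297 to 487. The numbers mark no stated litter. The correlation of deviations of same-numbered libraries averaged 0.162 (-0.0559 to 0.345), and 1 of the 5 numbers was each other's best match. Other pairs averaged -0.0403 and reached 0.272. Deviations were taken from the mean of each genotype and so cancel within it. The average of the other pairs therefore follows from the first and is no separate comparison. Whether the numbers mark a shared litter or batch was not tested. Within such pairs the exact permutation test of a ratio cannot go below 0.0625.

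Signs changed for Cldn7 with the Xist covariate (0.0502) and in libraries with under 10 Xist counts (0.00101), and with single libraries left out (-0.169 to 0.0415), as for Epcam (-0.0425 to 0.104). With the globin share covariate the log2 fold changes were 1.18 for Cdh1, 0.56 for Esrp1, 1.17 for Esrp2, 0.41 for Cldn1, 0.58 for Cldn4, 0.64 for Perp and 0.41 for Rab25. Relative to Epcam in place of Cdh1 the differences were -0.58 for Esrp2 and -0.37 for Esrp1, which both passed the threshold, -0.80 for Perp, -0.997 for Rab25, -0.52 for Krt15, -0.45 for Cldn1, -0.21 for Cldn4, -0.14 for Cldn7, -0.0287 for Krt8, -0.39 for Trp63 and -0.19 for Grhl2. Cldn1 relative to Cdh1 ranged from -0.0373 to 0.0575 with single libraries left out. The cause was not tested.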
